A study of Homo sapiens with 4 samples.

Results

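The 10 genes described here are components, inhibitors and target genes of the NF-kappaB pathway: the subunit genes NFKB1, NFKB2 and RELB, the inhibitor genes NFKBIA and TNFAIP3, the ubiquitin ligase gene BIRC3, the chemokine genes CXCL1 and CXCL8, the adhesion receptor gene ICAM1 and the early response gene IER3. They were taken by name, as every probe set whose only annotated gene symbol is one of the 10, of 19775 genes with such a probe set. Of the 10, 9 had a probe set, 16 probe sets in all; BIRC3 had none under this rule and has no value here. The cells were HCT116, an established line of human colorectal cancer cells, given a control siRNA on 2 arrays and a TET1 siRNA on another 2. The product of TET1 is an enzyme that oxidises methylated cytosine bases, and the study asked which genes it regulates in colorectal cancer. The design text calls the replicates biological duplicates. The time after transfection is not given in the sources used here. A single TET1 siRNA group is labelled, so loss of TET1 and other effects of that siRNA cannot be told apart.

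NF-kappaB is a family of dimeric transcription factors made from RELA, RELB, REL and the products of NFKB1 and NFKB2. In resting cells the dimers are held in the cytoplasm by IkappaB proteins, of which NFKBIA encodes the best known. Receptors for TNF, IL-1 and bacterial products activate the IkappaB kinase, IkappaB is degraded, and the freed dimers enter the nucleus. Many of the genes they switch on encode their own brakes, NFKBIA and TNFAIP3 among them, and others encode chemokines, adhesion molecules and survival factors. In intestinal epithelium and its tumours, CXCL1 and CXCL8 attract neutrophils and ICAM1 binds leukocyte integrins.

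NF-kappaB dimers bind a short DNA sequence, the kappaB element, and matches to it are shown because binding there is how the pathway is known to reach its target genes; they are given for the 7 measured members with a promoter in the RefSeq table (build GRCh38.p14). Each window runs from 250 bases before an annotated transcription start to 50 after it. Both strands were searched for GGAANTTCC and for the 10-base kappaB consensus, and the 2 patterns can overlap. Capitals mark the bases matched by either pattern, with 25 bases on each side, 5′ to 3′ on the strand of the gene. They lie at chr19:10270909-10270967 (ICAM1, plus strand), chr6:137867167-137867238 (TNFAIP3, plus), chr14:35404796-35404855 (NFKBIA, minus), chr4:102501285-102501344 (NFKB1, plus), chr10:102394446-102394534 (NFKB2, plus), chr4:73869289-73869349 (CXCL1, plus) and chr4:73740453-73740511 (CXCL8, plus).
ICAM1: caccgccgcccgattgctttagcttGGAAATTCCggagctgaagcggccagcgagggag
TNFAIP3: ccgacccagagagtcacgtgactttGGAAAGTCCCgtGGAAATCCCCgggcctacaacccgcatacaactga
NFKBIA: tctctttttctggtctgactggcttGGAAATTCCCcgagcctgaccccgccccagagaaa
NFKB1: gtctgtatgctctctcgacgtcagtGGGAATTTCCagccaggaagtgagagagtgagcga
NFKB2: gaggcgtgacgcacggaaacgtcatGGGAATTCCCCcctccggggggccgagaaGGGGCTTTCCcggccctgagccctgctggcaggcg
CXCL1: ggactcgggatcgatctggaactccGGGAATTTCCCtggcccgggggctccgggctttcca
CXCL8: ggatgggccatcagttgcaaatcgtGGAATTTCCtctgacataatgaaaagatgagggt

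The match began 186 bases before the start in ICAM1, 91 in CXCL8, 81 in NFKBIA, 79 in CXCL1 and 49 in NFKB1. TNFAIP3 held a pair of matches close together, 67 and 55 bases before the start. The window of NFKB2 shown held overlapping matches from 107 bases and another match 78 bases before the start. With BIRC3, all 8 members that have a window held a match in at least 1 of them, 9 of their 11 windows in all (1 of 2 windows for NFKB1 and 2 of 3 for NFKB2). Of all 27305 genes with a window, 7.91% held a match in any, and of all 35116 windows 0.97% held GGAANTTCC and 5.91% the consensus. ICAM1 and CXCL8 matched only the shorter pattern. The members were taken by name as components and target genes of this pathway, so setting them beside all genes tests nothing. RELB and IER3 are not in the promoter table. The windows also differed in CpG sites, the dinucleotides at which DNA is methylated: CXCL8 had 4 and ICAM1 24, against a median of 14 over all windows, while TNFAIP3 and the NFKB1 window shown had 35 each. DNA methylation and factor binding were not measured in these samples, and a match of letters is a description only.

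Each array gave 1 signal per probe set on a linear scale of arbitrary units, scaled by the authors to the same trimmed mean (100.01). Median signals were 13.9 to 15.5. Differences are of log2(signal + 16), TET1 siRNA minus control siRNA, tested with limma over the whole table, and a gene or probe set passed where its Benjamini-Hochberg adjusted p was below 0.05. Of 12389 genes tested 21.9% passed, 11.2% as higher and 10.6% as lower. TET1 itself, by 228906_at, had control signals of 58.1 and 59.6, against 14.6 and 15 after TET1 siRNA (log2 difference -1.28, SE 0.20, limma adjusted p = 9.69e-04). Its other probe set, 214862_x_at, read 18.2 and 35.5 against 6 and 8.9, also without overlap. Tested by itself, 214862_x_at did not pass (log2 difference -0.84, limma adjusted p = 0.0509). Of the markers of colorectal epithelium 7 of 9 passed the filter on dim probe sets. CDX1 and CDX2 did not, and VIL1 read only 10 to 18.9. The signals of all 9 summed to 17743 and 18427 in the controls and 19806 and 19810 after TET1 siRNA. These sums come mostly from KRT18, KRT19, KRT8 and EPCAM, which mark epithelium in general. The defining epithelial marker CDH1 (E-cadherin) fell (log2 difference -1.16), KRT8 rose (0.32), and the other 5 had log2 differences above 0 that did not pass (median of the 7, 0.15). Markers of leukocytes, which also make many NF-kappaB products, summed to 53 and 87.1 against 66.6 and 63.9 over 7 genes, of which the brightest averaged 15.1; fibroblast markers summed to 61.3 to 76.7 and endothelial markers to 25.3 to 54.9. The ratio of 3′ to 5′ signal for beta-actin, a sign of RNA integrity, was 1.21 and 1.19 against 1.28 and 1.26, and for GAPDH 0.858 and 0.846 against 0.884 and 0.858. The part of RNA integrity in the results below was not tested.

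Of the 9 measured members 2 fell after TET1 siRNA, TNFAIP3 and IER3, and 1 rose, ICAM1. The TNFAIP3 call rests on 1 of its 2 probe sets and the ICAM1 call on 1 of 3. The 2 falls are 2 of 9 genes against 10.6% of all genes tested, and the 1 rise is 1 of 9 against 11.2%. The other 6 did not pass. The median log2 difference of the 9 was -0.35, against 0.0098 for all genes tested, and the range was -0.66 to 0.65. This median depends on the probe set taken for each gene. With all probe sets of each gene averaged, the middle value of the 9 was that of CXCL1, -0.16, against a median of -0.0070 for all genes. Both TET1 siRNA arrays lay below both control arrays in 6 of the 9 (28.2% of all genes tested) and above them in 2, CXCL8 and ICAM1 (30.9% of all genes tested); CXCL1 overlapped. These counts also depend on the probe set taken for each gene. Of the other member probe sets above the filter, only ICAM1 202638_s_at had groups that did not overlap, and it lay lower. In RNA of whole cultures, less transcript in every cell and transcript in fewer cells cannot be told apart.

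**Figure D1:**
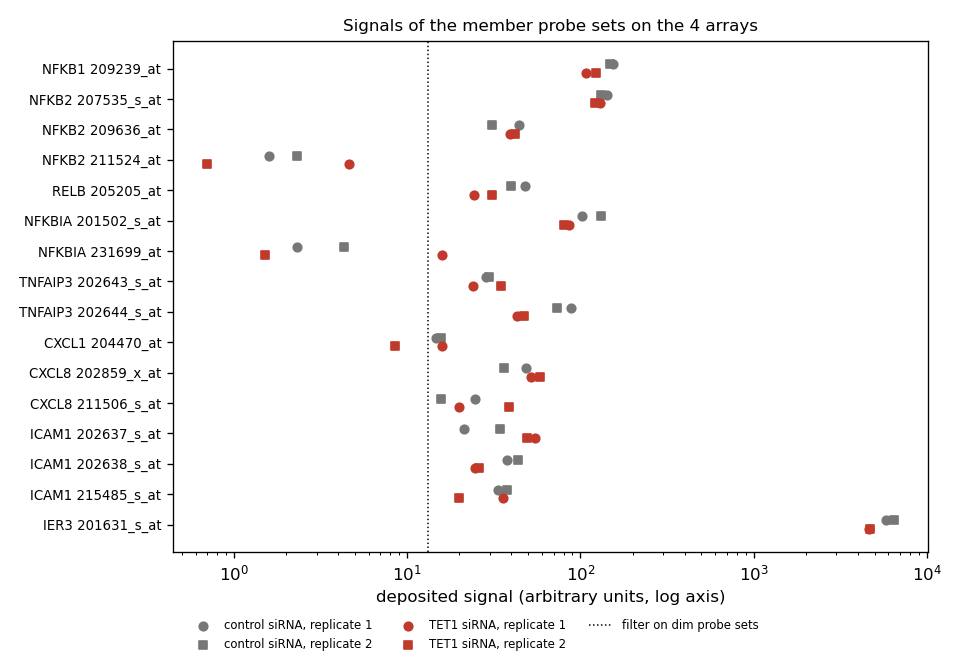
Deposited signal (arbitrary units, log axis) of the 16 probe sets of the 9 measured members on each array, control siRNA in grey and TET1 siRNA in red, with the filter on dim probe sets (a signal of 13.1) as a dotted line. The IER3 signals run from 4615.1 to 6447.7, and those of ICAM1, shown by 3 probe sets, from 19.9 to 54.5; 2 probe sets, of NFKB2 and NFKBIA, lie below the line by their means.

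Among the subunit genes none passed. NFKB1, which encodes the precursor p105 of the p50 subunit, read 154.4 and 148.2 in control cells, against 107.9 and 123.2 after TET1 siRNA. The groups did not overlap, and the TET1 siRNA mean was 76.4% of the control mean. The log2 difference was -0.35 (SE 0.13, 95% CI -0.63 to -0.067), with a limma adjusted p of 0.0762. RELB, the partner of p52 in the alternative pathway, read 48.1 and 39.9 against 24.2 and 30.9. These groups did not overlap either, and RELB had a log2 difference of -0.46 (SE 0.20, 95% CI -0.91 to -0.016, limma adjusted p = 0.134). NFKB2, the precursor gene of p52, differed least among the subunit genes. Its brighter probe set, 207535_s_at, read 142.9 and 132.3 against 130.1 and 121.3, a log2 difference of -0.12 (SE 0.13, limma adjusted p = 0.581; 95% CI -0.39 to 0.16). A dimmer one, 209636_at, read 44.1 and 31 against 39.2 and 41.8 and overlapped, and the faintest, 211524_at, read 0.7 to 4.6 and lay below the filter.

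The inhibitors are the pathway's own brakes. Of the 2 genes 1, TNFAIP3, passed as lower, by 1 of its 2 probe sets, while 10.6% of all genes tested passed as lower. NFKBIA, the IkappaB-alpha gene, read 101.9 and 131.1 in control cells, against 86.1 and 80.5 after TET1 siRNA by 201502_s_at. All TET1 siRNA values were lower, 71.5% of the control by means, but the control arrays differed from each other by nearly as much as from the TET1 siRNA arrays. The log2 difference was -0.41 (SE 0.15, 95% CI -0.74 to -0.072) and did not pass (limma adjusted p = 0.081). Without control siRNA replicate 1 it was -0.57 and passed (adjusted p = 0.0424); over 16 alternatives limma's adjusted p ran from this value to 0.878, the latter with its 2 probe sets averaged. A further NFKBIA probe set, 231699_at, read 1.5 to 15.9 and lay below the filter.

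TNFAIP3 encodes A20, which edits ubiquitin chains on the signalling complexes of TNF and IL-1 receptors and so ends the signal. By 202644_s_at it read 88.8 and 73.1 in control cells, against 43.3 and 47.1 after TET1 siRNA, means of 80.95 ± 11.1 and 45.2 ± 2.69 (SD, n = 2). The groups were well apart, a 1.79-fold fall by plain signals, and the gene passed with a log2 difference of -0.66 (SE 0.17, 95% CI -1.03 to -0.29, limma adjusted p = 0.017). The other probe set, 202643_s_at, did not show this: it read 28.4 and 29.8 against 23.9 and 34.7, with overlapping groups and a log2 difference of -0.0038 (95% CI -0.47 to 0.46, limma adjusted p = 0.994). With the mean of both probe sets the gene had a log2 difference of -0.33 and did not pass (adjusted p = 0.134). The call also ended when any 1 of 3 arrays was left out: control siRNA replicate 1 (log2 difference -0.54, adjusted p = 0.105), TET1 siRNA replicate 1 (-0.61, adjusted p = 0.0877) or TET1 siRNA replicate 2 (-0.70, adjusted p = 0.0543). Nor did it pass when dim probe sets were kept (adjusted p = 0.0802), and over all 15 alternatives that gave a value limma's adjusted p ran from 0.016 to 0.206.

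IER3 fell too, and its difference was the smallest but the most precisely measured of the 3 that passed. This gene encodes a short-lived protein of the early response to stress and growth signals, with a role in cell survival. It read 5817.5 and 6447.7 in control cells, against 4615.1 and 4720.7 after TET1 siRNA, means of 6132.6 ± 446 and 4667.9 ± 74.7 (SD, n = 2). The TET1 siRNA arrays lay below both controls, at 76.1% of the control mean. The log2 difference was -0.39 (SE 0.065, 95% CI -0.53 to -0.25, limma adjusted p = 0.00146). IER3 passed again when any 1 of the 4 arrays was left out, and it has a single probe set, so no other probe set bears on it. It did not pass in limma without a variance trend (adjusted p = 0.084) or without moderation (0.208), and its fall was smaller than the 1.5-fold asked for in another alternative. In the remaining alternatives its limma adjusted p ran from 9.88e-04 to 0.0218.

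**Figure D2:**
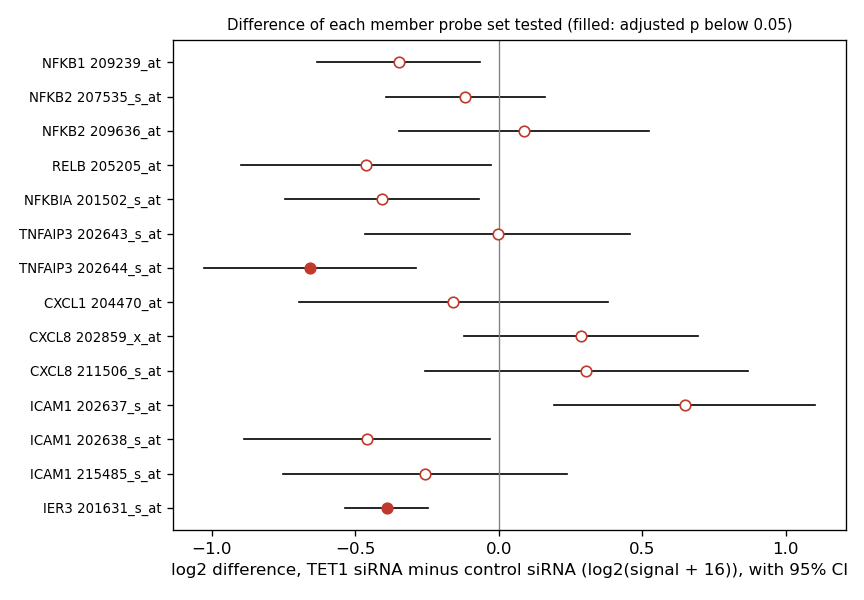
Log2 difference (TET1 siRNA minus control siRNA, log2(signal + 16)) of 14 member probe sets, from the limma test of single probe sets, with 95% confidence intervals; filled points have an adjusted p below 0.05. The 2 filled points are TNFAIP3 202644_s_at and IER3 201631_s_at, both below 0, and the 3 ICAM1 points lie on both sides of 0.

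The ICAM1 probe sets gave different answers, so they are described one by one. ICAM1 encodes a surface glycoprotein that leukocytes grip when they attach to endothelium or epithelium, and it is a standard readout of NF-kappaB activity. The probe set 202637_s_at read 21.2 and 34.3 in control cells, against 54.5 and 49.2 after TET1 siRNA, 27.75 ± 9.26 and 51.85 ± 3.75 (SD, n = 2). Both TET1 siRNA arrays were higher, 1.87-fold by means. It stands for ICAM1 in the gene-level test because its mean signal over all 4 arrays is the highest of the 3. In the control arrays alone it was the dimmest (mean 27.75, against 40.8 and 35.55), so the choice depended on the difference being tested. In the gene-level test ICAM1 passed narrowly (log2 difference 0.65, SE 0.21, 95% CI 0.18 to 1.11, limma adjusted p = 0.0484). When each of 27306 probe sets was tested by itself, the same values did not pass (limma adjusted p = 0.0567). In that test 0 of the 14 member probe sets above the filter were called higher and 2 lower, against 7.76% and 8.31% of all probe sets tested.

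The second, 202638_s_at, differed in the other direction: it read 37.7 and 43.9 in control cells, against 24.5 and 26 after TET1 siRNA. Here both TET1 siRNA arrays were lower, at 61.9% of the control mean (40.8 ± 4.38 and 25.25 ± 1.06, SD, n = 2). The log2 difference was -0.46 (SE 0.19, 95% CI -0.89 to -0.032) and did not pass (limma adjusted p = 0.14). The third, 215485_s_at, read 33.6 and 37.5 against 35.7 and 19.9, with overlapping groups and a log2 difference of -0.26 (SE 0.22, limma adjusted p = 0.502; 95% CI -0.75 to 0.24).

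Within each control array 202637_s_at read below 202638_s_at, by 0.53 and 0.25 on the log2 scale, and within each TET1 siRNA array it read above it, by 0.80 and 0.63. The difference between their log2 differences was 1.11. An exact two-sided permutation test of 2 against 2 arrays gave p = 0.333, the smallest this design allows (adjusted over the 6 pairs of probe sets of 1 gene compared, 0.667). With the mean of its 3 probe sets ICAM1 had a log2 difference of -0.023 (limma adjusted p = 0.94), so no direction for ICAM1 was common to its probe sets. All 3 have IDs ending in _s_at, a suffix that this platform gives to probe sets that can match more than 1 transcript. The probe sets behind the TNFAIP3 and IER3 calls, 202644_s_at and 201631_s_at, have it too. The gene-level ICAM1 call was also lost when control siRNA replicate 1 (0.43, adjusted p = 0.218), TET1 siRNA replicate 1 (0.59, adjusted p = 0.206) or TET1 siRNA replicate 2 (0.70, adjusted p = 0.126) was left out, and when dim probe sets were kept (adjusted p = 0.162). Over 15 alternatives the gene-level adjusted p ran from 0.0316 to 0.94, the highest with the 3 probe sets averaged; for 202637_s_at tested by itself it ran from 0.0394 to 0.346 over 13.

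**Figure D3:**
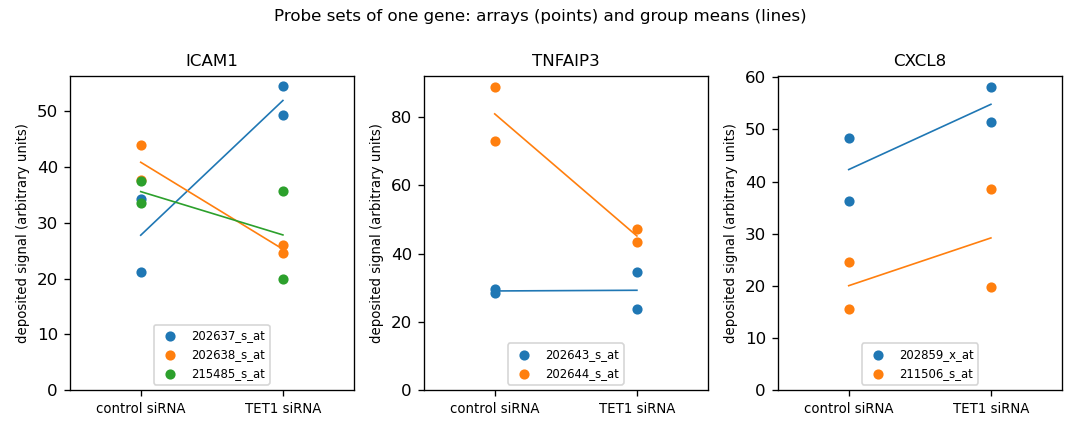
Deposited signal (arbitrary units, linear axis from 0) of each probe set above the filter for ICAM1, TNFAIP3 and CXCL8; points are arrays and lines join group means. The ICAM1 lines cross, 1 TNFAIP3 line falls and the other is nearly flat (means of 29.1 and 29.3), and both CXCL8 lines slope upward, with arrays that overlap in 1 of the 2 probe sets.

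Neither chemokine gene passed. CXCL8, which encodes interleukin-8, read 48.4 and 36.2 in control cells, against 51.5 and 58.1 after TET1 siRNA by 202859_x_at. The TET1 siRNA arrays were the higher ones, 1.30-fold by means, with a log2 difference of 0.29 (SE 0.19, 95% CI -0.13 to 0.70, limma adjusted p = 0.324). By 211506_s_at it read 24.5 and 15.6 against 19.8 and 38.6, which overlap, and the log2 difference was 0.31 (limma adjusted p = 0.482). CXCL1, a chemokine gene of the same genomic cluster, was barely above the filter: 14.6 and 15.7 against 15.8 and 8.5. Its groups overlapped, with a log2 difference of -0.16 (SE 0.26, limma adjusted p = 0.734; 95% CI -0.73 to 0.42). The single low value, 8.5, came from TET1 siRNA replicate 2, and without that array the log2 difference was 0.030.

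The rest of the pathway was read from 8 lists of 139 other genes, arranged by role. Of the 101 that were tested 12 rose and 12 fell (23.8%, against 21.9% of all genes), and their median log2 difference was -0.018, against 0.0098 for all genes. This share lies near the background. These calls, and those of the genes named below, rest for each gene on its probe set of highest mean signal. With all probe sets of each gene averaged, 90 of the list genes were tested. Of these 3 rose and 5 fell, with 14.4% of all genes passing. With each array centred on its median the counts were 12 and 7, with 19.8% of all genes passing. The counts also changed when 1 array was left out, and so did those over all genes, but not always in the same direction. Whether the lists changed more than other genes was not tested. Among genes for activating ligands 3 of 10 with a probe set lay above the filter (a signal of 13.1), with group means of 12.3 to 20.9. Values so near the filter do not show that these genes were expressed. None passed by limma, with none at an unadjusted p below 0.05.

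Of 18 receptor genes 4 rose and 1 fell (27.8%, against 21.9% of all genes, median -0.011). IL1RAP, the co-receptor of IL-1, rose from 131.8 and 77.6 to 172.3 and 257.6 (log2 difference 0.95, limma adjusted p = 0.0088). TNFRSF21 (death receptor 6) fell from 1377.1 and 1615.2 to 781.9 and 755.4 (-0.94, limma adjusted p = 3.27e-05). The IL-1 receptor gene IL1R1 rose by 0.37 (limma adjusted p = 0.0441). Both IL-1 receptor genes were thus higher, while the spread between arrays was wide for IL1RAP.

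Of 18 genes in the list of adaptors and ubiquitin ligases, which also holds the kinase genes IRAK1, IRAK2 and RIPK2, 3 rose and 2 fell. This is 27.8%, against 21.9% of all genes (median 0.0065). TRAF3, which holds the alternative pathway in check by promoting the decay of its kinase, fell from 136.5 and 137.1 to 67.4 and 68.1 (log2 difference -0.87, limma adjusted p = 0.00106). BCL10, an adaptor between antigen or G protein-coupled receptors and the IkappaB kinase, rose by 0.42, and the apoptosis inhibitor gene XIAP rose by 0.33. Of 12 genes for kinases of the pathway and their partner proteins 1 rose and 3 fell (33.3%, median 0.0014). TBK1, an IkappaB kinase relative that acts in innate sensing, rose from 315.3 and 315.6 to 481.9 and 461.1 (0.56, limma adjusted p = 0.00113). CHUK, which encodes IKK-alpha, fell by 0.44, and TAB3, an adaptor of the kinase TAK1, fell by 0.41.

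Among 8 other subunit and IkappaB genes only RELA passed (12.5%, against 21.9% of all genes, median of the list -0.15). RELA encodes p65, the main activating subunit, and it read 292.5 and 290.8 in control cells, against 207.7 and 225.3 after TET1 siRNA, a log2 difference of -0.41 (SE 0.10, limma adjusted p = 0.0153). Of 18 other negative regulators 3 rose and 1 fell (22.2%, median -0.025). COMMD1, which promotes RELA degradation, rose by 0.56, N4BP1 rose by 0.45, and the cytokine signalling suppressor gene SOCS3 fell by 0.51. Of 7 measured chemokine and cytokine genes beyond CXCL1 and CXCL8, of 19 with a probe set, only LIF passed (14.3%). LIF fell from 155.3 and 159.1 to 103.5 and 101.2 (-0.55, limma adjusted p = 0.00893). Of 17 other target genes 1 rose and 3 fell (23.5%, median -0.018). The urokinase gene PLAU fell by 0.70, IL15RA fell by 0.66, and CFLAR, a caspase-8 inhibitor and survival gene, rose by 0.58.

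**Figure D4:**
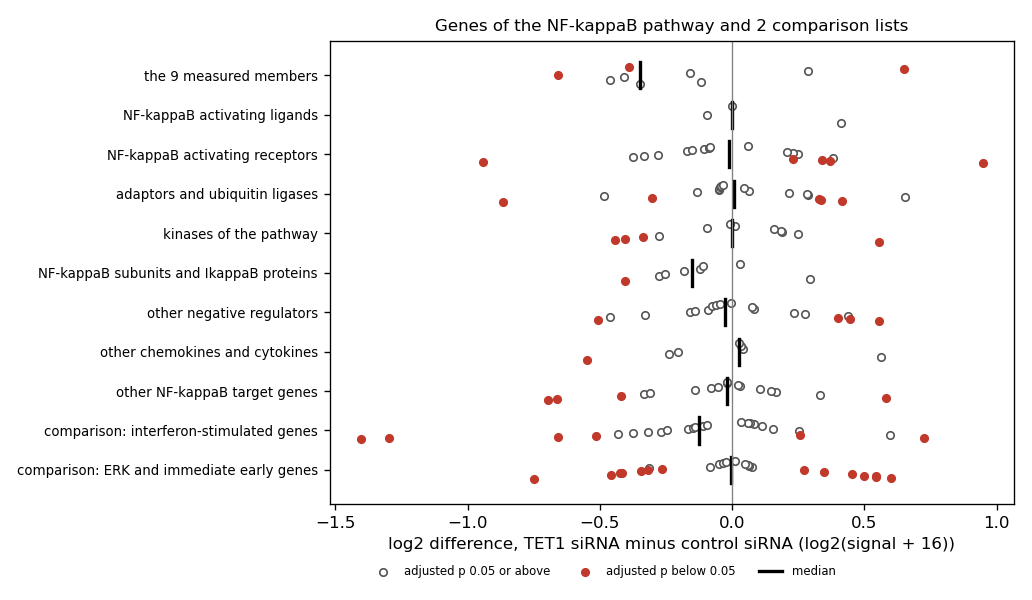
Log2 difference (TET1 siRNA minus control siRNA) of the 9 measured members, of the genes tested in 8 lists of other NF-kappaB pathway genes and of 2 comparison lists; red points have an adjusted p below 0.05 and black bars are medians. The bars of the 8 lists lie between -0.15 and 0.026, and that of the members at -0.35.

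Some members also answer to other signals, and 2 lists were read beside them. Of 24 immediate early and ERK feedback genes, a group to which IER3 is related as an early response gene, 7 rose and 7 fell. This is 58.3%, against 21.9% of all genes (median -0.0052). DUSP4, a phosphatase of ERK, fell by 0.75, while JUN rose by 0.60 and DUSP1 rose by 0.55. Of 24 interferon-stimulated genes 2 rose and 4 fell (25%, median -0.12): IFITM1 fell by 1.40, EIF2AK2 fell by 1.30 and IFI6 rose by 0.72. Both lists thus held calls in both directions. Among the members the only rise was the gene-level call of ICAM1, whose probe sets had no direction in common. Differences between the lists were not tested.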

How the data were processed

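RNA of 4 HCT116 samples, grouped by their titles as control or TET1 knockdown, was measured on 1 Affymetrix GeneChip array each. The values that the authors deposited are linear intensity values per probe set, with the same trimmed mean (2% off each end) on every array; no source used here names the software, the background step or the scaling target. Signals of dim probe sets depend on that background step. From these values log2(signal + 16) was computed. Of 54675 probe sets 62 controls were left out. Symbols came from the platform annotation, updated through RefSeq. For each gene the probe set of highest mean signal over all 4 arrays was taken. Genes (12389) and probe sets (27306) with a mean log2 value above the median of all (4.86) were tested with limma 3.58.1 in R 4.3.3 (lmFit, eBayes with trend, 2 residual and 9.24 prior degrees of freedom for genes), two-sided, with Benjamini-Hochberg adjustment over all features of the fit. Of the member probe sets 14 of 16 passed this filter.

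The members and the gene lists were chosen with earlier results of these data known. Named are all members, TET1 and up to 3 genes a list past the threshold, by size of difference. CDH1 was named as a marker. The script was tested on simulated data. The closing section gives the alternatives. Figures were drawn with matplotlib 3.10.9.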

Additional observations from a re-analysis of the deposited data

How the results depend on the processing

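The counts of members that passed (1 higher and 2 lower as genes, 0 higher and 2 lower as probe sets) changed under most alternatives, while IER3 passed in each alternative that gave it a value except limma without a variance trend, limma without moderation and the 1.5-fold minimum, which its difference did not reach. Leaving out 1 array gave 0 to 1 member genes higher and 1 to 2 lower, 0 to 1 member probe sets higher and 1 to 2 lower, and 6 to 15 pathway list genes higher and 5 to 8 lower. Such a fit takes the spread of the single array from the group that kept 2. Quantile normalization and median centring each gave 1 member probe set higher, ICAM1 202637_s_at (adjusted p = 0.0441 and 0.0446), and median centring gave 7 pathway list genes lower. With a pseudocount of 1, 0 member genes were higher (ICAM1 adjusted p = 0.0532). Without a variance trend 0 member genes were higher and 1 lower, 0 member probe sets were lower, and 2 pathway list genes were higher and 4 lower; over all genes the counts were 442 and 542. In limma without moderation 0 member genes, 0 member probe sets, 0 pathway list genes and 0 of all genes passed in either direction, TET1 included (log2 difference -1.28, adjusted p = 0.0964); 2679 genes and 2 members had an unadjusted p below 0.05, on 2 residual degrees of freedom. With no filter 0 member genes were higher and 1 lower, 1 member probe set was lower, and 7 pathway list genes were higher and 6 lower (905 and 854 of all genes). The upper-quartile filter left 4 members, with 0 genes higher, 1 gene lower and 1 probe set lower. With all probe sets of each gene averaged 0 member genes were higher and 1 lower, and 3 pathway list genes were higher and 5 lower (772 and 892 of all genes). Without _x_at and _s_at probe sets 4 members were left, 0 higher and 0 lower by limma (2 at an unadjusted p below 0.05), and 7 pathway list genes were higher and 7 lower (885 and 909 of all genes). TNFAIP3, ICAM1 and IER3 were not among these 4 members. At an adjusted p below 0.01, 0 member genes were higher and 1 lower, 1 member probe set was lower, and 8 pathway list genes were higher and 4 lower (751 and 731 of all genes). At 1.5-fold or more, 1 member gene was higher and 1 lower, 1 member probe set was lower, and 1 pathway list gene was higher and 4 lower (429 and 537 of all genes). Without TET1 siRNA replicate 1 or 2, 813 and 840 of all genes were higher, and 873 were lower without control siRNA replicate 2, against 1393 and 1316.

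Signs turned only in values that had not passed, apart from ICAM1. With probe sets averaged, ICAM1 was at -0.023 and NFKB2 at 0.0064, and without _x_at and _s_at probe sets NFKB2 was at 0.088. TNFAIP3 202643_s_at was at 0.041 with quantile normalization, 0.031 with median centring and 0.00072 with a pseudocount of 64. With 1 array left out it ran from -0.18 to 0.17, NFKB2 209636_at from -0.089 to 0.27, CXCL1 from -0.35 to 0.030 and ICAM1 215485_s_at from -0.52 to 0.0052.

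The arrays share replicate numbers, but same-numbered arrays did not deviate together (correlation 0.0055 across genes tested). With the number as a block 0 member genes were higher, since ICAM1 moved to an adjusted p of 0.0518, and 2 were lower; no other member call changed. Taking the probe set of highest mean log2 value, chosen after seeing the data, changed no member call.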
